A study of Arabidopsis thaliana with 8 samples.

Results

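Rosette leaves of the mips1 mutant of Arabidopsis thaliana were compared with those of the wild type Col-0 by mRNA sequencing. The comparison rests on 4 of the 8 libraries of the series, 2 of mips1 and 2 of Col-0, and on 23916 of the 37336 listed genes, which had enough reads to be tested. mips1 carries the T-DNA insertion allele mips1-1 of MIPS1 in the Col-0 background, and Col-0 carries no insertion. Only this allele was sequenced, so an effect of MIPS1 cannot be told apart from that of any other change in the line. The other 4 libraries, of lines labelled big and mips1 big, helped to estimate the spread. The study describes these lines as somi2 and mips1 somi2. Its somi2 is a mutation in the gene BIG, from a chemical mutagenesis screen for mips1-1 plants without lesions. By the labels, plants of both lines spent 1 week in vitro in long days, 2 weeks on soil in short days and 5 days in long days. In the study's methods the part on RNA sequencing gives other lengths for the short and long days, and a poly(A) selection with a directional RNA kit where the labels name a kit for DNA libraries. RNA of several plants was pooled for each library. Nothing states that the 2 libraries of a line came from separate cultures, so the p-values measure the spread between these samples, which may be technical.

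MIPS1 encodes myo-inositol-1-phosphate synthase, which makes the precursor of myo-inositol from glucose 6-phosphate. Inositol enters phosphatidylinositol, inositol phosphates, galactinol, cell wall sugars and the head group of plant sphingolipids. Plants without MIPS1 are known for lesions that spread over the leaves in long days and for a need of salicylic acid in forming them.

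The 2 mips1 libraries held 66921940 and 104501879 counts, and the 2 Col-0 libraries 50123257 and 100017412. Counts were scaled by the TMM method, which corrects for a few abundant genes taking up reads, and are given as CPM, counts relative to the scaled total of their library. At these depths 3 counts, used as the limit of detection, equal 0.0273 to 0.0419 CPM in mips1 and 0.0353 to 0.0716 CPM in Col-0. The 10 genes with most reads took 4.15% and 4.11% of the counts in mips1 and 12.5% and 11.6% in Col-0. Organelle genes took 0.791% and 0.644% in mips1 and 2.67% and 0.926% in Col-0. Replicates differed by a median of 0.08 on the log2 scale in mips1 and 0.13 in Col-0. Of the 7 leaf markers, all were present in every library, with a summed level of 8660 and 8840 CPM in mips1 and 25530 and 25668 CPM in Col-0. The 12 markers of roots, flowers, seeds and shoot meristems summed to 8.30 and 8.18 CPM in mips1 and 8.02 and 6.31 CPM in Col-0, and WUS, which defines the meristem's organizing cells, was at 0 counts in all 4. In pooled leaves fewer cells of a type and less RNA per cell cannot be told apart.

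MIPS1 (AT4G39800) lies on the reverse strand of chromosome 4, from 18469255 to 18472048 in TAIR10. Its transcripts stood at 5.30 and 6.12 CPM in the mips1 libraries and at 119.7 and 152 CPM in the Col-0 libraries. Both mips1 libraries were thus far under both Col-0 libraries, as the labels require, with a log2 fold change of -4.57 ± 0.13 (SE, n = 2 libraries a line; adjusted p = 1.08e-10). Adjusted p-values here and below are Benjamini-Hochberg values over all tested genes from edgeR's quasi-likelihood test. A gene was called changed at an adjusted p under 0.05, and fold changes are mips1 over Col-0.

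Across the genome 8602 genes rose in mips1 (36.0% of those tested) and 8877 fell (37.1%). Their median log2 fold change was -0.03 and the median size of a change 0.63, with a median standard error of 0.09. Since most genes passed this rule, calls with a change of at least 2-fold are given as well: 4126 genes rose so far (17.3%) and 3424 fell (14.3%). Larger changes were mostly rises. At 4-fold there were 2317 rises and 624 falls, and at 16-fold 1088 rises and 26 falls. Some of the rises lay in genes near 0 in Col-0, which passed the filter through other libraries. Of genes with at most 3 counts in each Col-0 library, 554 were called at least 2-fold higher. Of genes with at most 3 counts in each mips1 library, 69 were called at least 2-fold lower. With at least 10 counts required in every library, 2978 genes rose and 2911 fell by at least 2-fold. In 5 of the 7550 genes called at 2-fold the libraries of the lines overlapped. Over all 23916 tested genes, called or not, the libraries lay apart in 9885 higher and 10250 lower ones. Scaling by library size alone moved the median gene up by 0.33 on the log2 scale, so that 12033 genes rose and 5813 fell; rises then made up 67.4% of the calls, against 49.2% under TMM. Calls of falls smaller than this shift depend on the scale.

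The genes beside MIPS1 moved in no common direction. Of the 5 tested genes on each side, AT4G39780, AT4G39820, AT4G39830 and HCC2 rose, TPPH, AT4G39790 and AT4G39810 fell, and AT4G39795, AT4G39838 and AT4G39840 were not called. AT4G39830, a cupredoxin gene 3 places away, was at 103 and 101 CPM in mips1 and 1.48 and 1.24 CPM in Col-0, a log2 fold change of 6.26. AT4G39838 and AT4G39840 overlap on opposite strands and held nearly the same counts; the counting used no strand, and a read lying on overlapping genes counted for all of them.

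**Figure D1:**
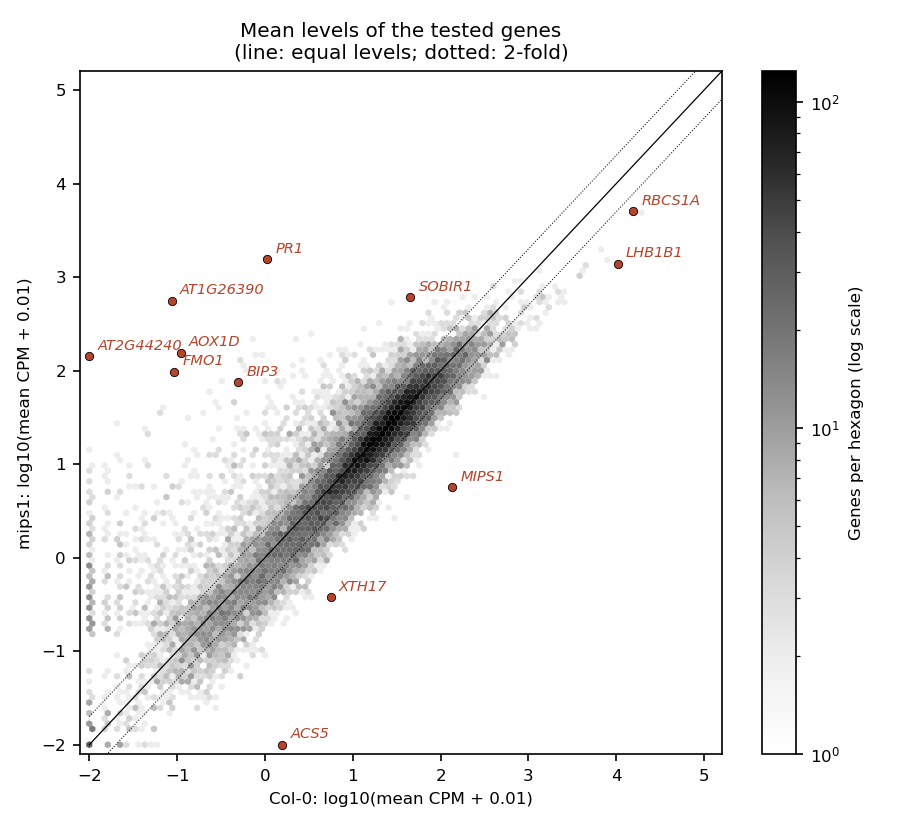
Mean level of each tested gene in mips1 (vertical axis) and Col-0 (horizontal axis), both as log10(mean CPM + 0.01) of 2 libraries; darker hexagons hold more genes, red points are named genes, the solid line marks equal levels and dotted lines 2-fold. Genes spread above the band where Col-0 is near 0, as with AT2G44240 at 136 and 152 CPM in mips1 and 0 in Col-0, and bend below it at the highest Col-0 levels, as with LHB1B1.

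Salicylic acid is the hormone of defence against biotrophic pathogens and is made in leaves mainly through isochorismate. ICS1, EDS5 and PBS3 of this route all rose in mips1. ICS1, the isochorismate synthase, stood at 114 and 126 CPM in mips1 and 7.45 and 8.61 CPM in Col-0. PBS3, which couples isochorismate to glutamate, reached 192 and 219 CPM in mips1 and 1.81 and 2.49 CPM in Col-0. The export carrier EDS5 rose to 54.0 and 56.3 CPM in mips1 against 25.5 and 18.8 CPM in Col-0. The regulators CBP60G and SARD1, which bind the ICS1 promoter, had log2 fold changes of 4.53 and 3.33. Genes that remove the hormone also rose: the hydroxylases DMR6 (407 and 420 CPM in mips1, 17.7 and 18.1 CPM in Col-0) and DLO1 (182 and 183 CPM in mips1, 0.382 and 0.353 CPM in Col-0), the glucosyltransferase UGT76B1 with a log2 fold change of 5.80 and the methyltransferase BSMT1 with 4.61. Of 16 tested genes for salicylic acid synthesis and turnover, 12 rose (75%) and 4 fell (25%), against 36.0% and 37.1% of all tested genes. By at least 2-fold 10 rose and 1 fell, and the median log2 fold change of the 16 was 3.61. The 4 that fell were ICS2, the minor isochorismate synthase (log2 fold change -1.29), UGT74F1 (-0.70), EPS1 (-0.37) and PAL2 (-0.36), and those of EPS1, PAL2 and UGT74F1 were not called under scaling by library size. The calls of EPS1 and PAL2 were also lost without the mips1 library of replicate 1, and that of UGT74F1 with DESeq2, after thinning, and without replicate 2 of either line.

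The marker genes of a salicylic acid response rose as well. PR1, a secreted antimicrobial protein, was at 1561 and 1555 CPM in mips1 and 1.03 and 1.06 CPM in Col-0, a log2 fold change of 10.54 ± 0.14 (SE, n = 2; adjusted p = 3.15e-14). The glucanase PR2, listed as BGL2, was at 1938 and 2046 CPM in mips1 and 4.70 and 5.33 CPM in Col-0, and the thaumatin-like PR5 at 646 and 676 CPM in mips1 and 1.74 and 1.61 CPM in Col-0. All 12 tested response genes rose by at least 2-fold, against 17.3% of all tested genes, with a median of 4.09. The salicylic acid receptors NPR1, NPR3 and NPR4 were at the low end with 1.40, 2.06 and 1.08. Their partners NIMIN-1 and NIMIN-2 had 3.27 and 4.13, and the glutaredoxin GRX480 8.01.

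**Figure D2:**
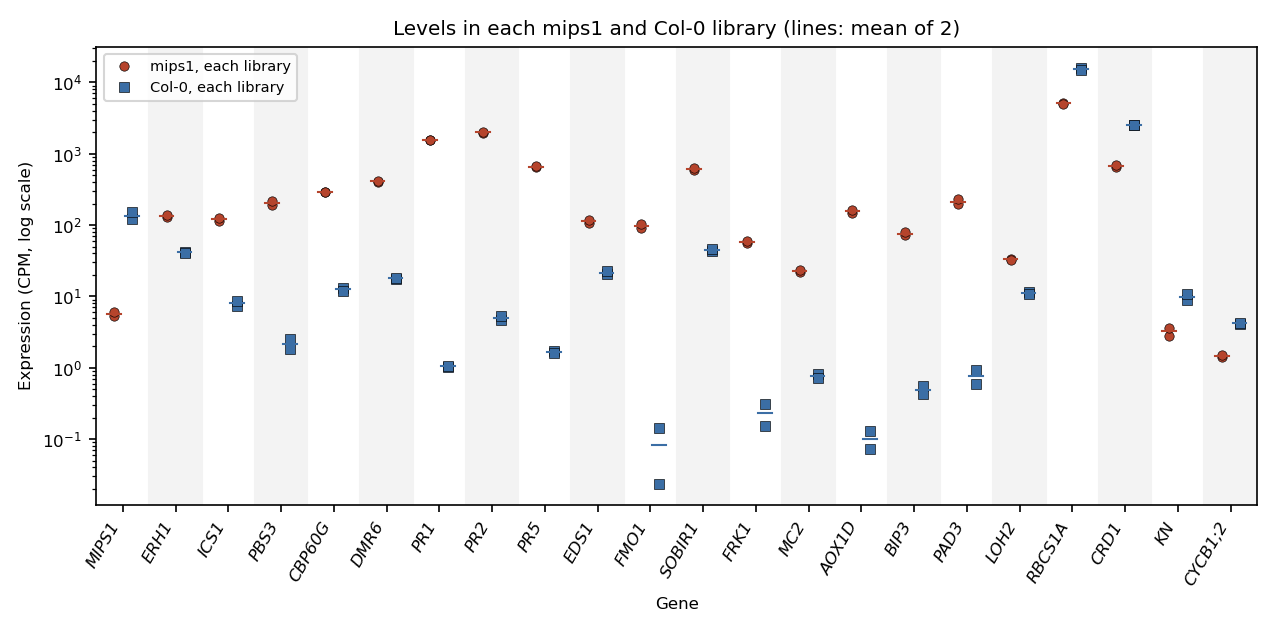
Level of 22 genes in each library (CPM, log scale), with mips1 as circles on the left and Col-0 as squares on the right of each gene; short lines are means of 2 libraries. In every gene shown the libraries of the lines are apart, as they are in 9885 higher and 10250 lower genes of the 23916 tested. MIPS1, RBCS1A, CRD1, KN and CYCB1;2 are lower in mips1 and the other genes higher, PR1 by a log2 fold change of 10.54.

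Upstream of the hormone, EDS1 and its partners PAD4 and SAG101 relay signals from NLR receptors, the intracellular sensors of pathogen effectors. EDS1 was at 108 and 117 CPM in mips1 and 20.4 and 22.8 CPM in Col-0. The list for this node had 12 names, of which 9 were matched to a gene. All 9 were tested and rose by at least 2-fold (median log2 fold change 2.38), against 17.3% of all tested genes. Among them were the helper NLR genes ADR1 (2.73), ADR1-L1 (1.65) and ADR1-L2 (1.70). ALD1 and FMO1, of the route to N-hydroxypipecolic acid, a signal of systemic resistance, rose too. ALD1 was at 50.01 and 59.99 CPM in mips1 and 0.310 and 0.224 CPM in Col-0, and FMO1 at 91.7 and 104 CPM in mips1 and 0.143 and 0.0235 CPM in Col-0, where the libraries held 6 and 2 counts.

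Immunity at the cell surface starts with receptor kinases that bind microbial patterns. Of 19 tested genes of pattern-triggered immunity, 18 rose (94.7%) and 15 did so by at least 2-fold (78.9%), with a median of 1.80. Of all tested genes 36.0% rose and 17.3% did so by at least 2-fold. The exception was FLS2, the receptor of bacterial flagellin, at 38.5 and 39.5 CPM in mips1 and 69.3 and 64.7 CPM in Col-0, with a log2 fold change of -0.78. EFR, the receptor of bacterial elongation factor, had 1.88. SOBIR1, the kinase that works with receptor-like proteins, was at 588 and 623 CPM in mips1 and 43.5 and 46.4 CPM in Col-0. Downstream, the NADPH oxidases RBOHD (2.58) and RBOHF (1.64) rose, as did the MAP kinases MPK3 (1.80), MPK4 (0.80) and MPK6 (0.38). FRK1, a kinase used as a marker of the pathway, was at 56.0 and 59.3 CPM in mips1 and 0.310 and 0.153 CPM in Col-0.

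Families of receptors and of regulators that are known in defence held many raised members. Over all tested genes 36.0% rose and 37.1% fell, and 17.3% rose by at least 2-fold. Of 63 tested WRKY factors, 49 rose (77.8%) and 4 fell (6.35%), and 39 (61.9%) rose by at least 2-fold. Each of the 12 alternatives called only 1 or 2 WRKY genes lower. WRKY31, the highest, was at 99.6 and 90.1 CPM in mips1 and 0.119 and 0.0941 CPM in Col-0, and WRKY49, the lowest, at 0.140 and 0.118 CPM in mips1 and 0.573 and 0.576 CPM in Col-0. Among 39 cysteine-rich receptor-like kinases 32 rose (82.1%) and 4 fell (10.3%) at any fold, against 36.0% and 37.1% of all tested genes. The strongest fall was CRK21 (log2 fold change -1.74). Of 52 receptor-like proteins 38 rose (73.1%) and 9 fell (17.3%) at any fold. RLP7 was at 34.4 and 32.8 CPM in mips1 while its Col-0 libraries held 0 and 2 counts, a ratio of 2120 with a 95% counting interval of 587 to 17500 that covers counting error only. Of 103 tested NLR genes, 82 rose (79.6%) and 6 fell (5.83%) at any fold, 52 and 3 by at least 2-fold, with a median of 1.04. AT5G18350, a TIR-type NLR gene, had no count in Col-0 and 8.04 and 9.65 CPM in mips1, which is at least 123-fold higher against a floor of 3 counts in a library. AT5G35510, the lowest, had a log2 fold change of -2.33. Members of these families are close paralogues, and reads that map to several places were counted, so values of single members are less certain than those of other genes.

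WRKY factors bind a 6-letter core, the W-box, read here as TTGACC or TTGACT on either strand. It was searched from 250 bases before to 50 bases after the start of each gene, in the RefSeq sequence of TAIR10. The word was present in 44.5% of 3736 promoters of protein-coding genes called at least 2-fold higher in mips1, in 25.7% of 3065 called at least 2-fold lower, in 30.9% of 5304 not called, and in 32.4% of all 27443 promoters. By list it was in 13 of 19 promoters of pattern-triggered immunity, 25 of 40 of cysteine-rich receptor-like kinases, 31 of 52 of receptor-like proteins and 68 of 118 of NLR genes. It was in 4 of 12 promoters (33.3%) of the salicylic acid response genes, close to the share of all promoters, and in 6 of 36 (16.7%) of the photosystem family. A match is a description of the letters and not of a site in use. The 250 bases before the start are shown for FRK1, OXI1, F6H1 and MC2, genes that rose by more than 16-fold and hold the word more than 1 time; these 4 were chosen after their matches were seen. Capitals mark the W-box, and all are read 5′ to 3′ on the strand of the gene.
FRK1, chr2:8329945-8330194, reverse strand: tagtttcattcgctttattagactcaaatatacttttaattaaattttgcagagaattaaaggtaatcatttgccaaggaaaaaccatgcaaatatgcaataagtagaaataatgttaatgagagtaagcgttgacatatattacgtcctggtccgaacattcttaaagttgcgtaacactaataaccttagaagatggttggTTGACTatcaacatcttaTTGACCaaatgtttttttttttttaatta
OXI1, chr3:9195084-9195333, forward strand: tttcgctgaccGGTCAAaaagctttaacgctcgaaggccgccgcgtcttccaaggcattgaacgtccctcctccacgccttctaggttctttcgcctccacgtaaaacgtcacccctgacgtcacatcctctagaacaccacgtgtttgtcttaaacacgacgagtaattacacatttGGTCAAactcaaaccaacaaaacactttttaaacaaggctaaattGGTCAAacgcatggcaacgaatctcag
F6H1, chr3:4449009-4449258, forward strand: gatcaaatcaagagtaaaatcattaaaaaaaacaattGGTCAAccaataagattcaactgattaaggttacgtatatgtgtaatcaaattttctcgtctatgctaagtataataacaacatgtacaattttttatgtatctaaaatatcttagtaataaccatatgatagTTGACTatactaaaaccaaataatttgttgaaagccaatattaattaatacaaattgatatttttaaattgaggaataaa
MC2, chr4:12890263-12890512, reverse strand: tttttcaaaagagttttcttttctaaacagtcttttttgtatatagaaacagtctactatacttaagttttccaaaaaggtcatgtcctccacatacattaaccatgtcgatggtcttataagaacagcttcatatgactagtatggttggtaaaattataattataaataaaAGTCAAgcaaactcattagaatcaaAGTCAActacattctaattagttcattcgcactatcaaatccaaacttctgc
In FRK1 the words begin 47 and 29 bases before the start, in OXI1 239, 72 and 27 bases, in F6H1 213 and 80 bases, and in MC2 77 and 52 bases.

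Regulators of cell death changed in both directions. MC2, a metacaspase that restrains cell death, was at 22.3 and 23.6 CPM in mips1 and 0.812 and 0.718 CPM in Col-0, while MC1, the metacaspase that promotes it, had a log2 fold change of 1.07. The BON1 protein and its partners BAP1 and BAP2, which hold back death in leaves, had 2.09, 4.85 and 8.45, and BI-1, an inhibitor in the endoplasmic reticulum, was at 309 and 326 CPM in mips1 and 44.7 and 46.3 CPM in Col-0. CNGC2, an ion channel gene whose mutants have defence without visible death, fell to 62.4 and 62.4 CPM in mips1 against 128 and 145 CPM in Col-0. Of 17 tested genes 11 rose (64.7%) and 4 fell (23.5%), against 36.0% and 37.1% of all tested genes. The other falls were LOL1 (-0.51), ACD2 (-0.41) and CNGC4 (-0.40), and those 3 were not called under scaling by library size. ACD11 and MC9 were not called.

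Genes that respond to reactive oxygen or remove it changed in both directions. AOX1D, an alternative oxidase of mitochondria, was at 149.7 and 161 CPM in mips1 and 0.0716 and 0.129 CPM in Col-0. OXI1, a kinase activated by hydrogen peroxide, was at 29.7 and 29.3 CPM in mips1 and 0.143 and 0.129 CPM in Col-0, and the zinc finger gene ZAT12 had a log2 fold change of 5.88. The cytosolic superoxide dismutase CSD1 rose (1.33) and the chloroplast enzymes CSD2 (-1.11) and FSD1 (-1.07) fell. Altogether 9 of 12 tested genes rose (75%) and 3 fell (25%), against 36.0% and 37.1% of all tested genes. The remaining fall was the catalase CAT2 (AT4G35090) at -0.32, which was at 0.01 with library size as the scale. Glutathione transferases, which conjugate toxic products, were led by GSTU3 with 180.4 and 177 CPM in mips1 and 0.0478 and 0.0706 CPM in Col-0. Of 36 tested tau and phi members 23 rose (63.9%) and 6 fell (16.7%), against 36.0% and 37.1% of all tested genes.

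Every tested gene for folding in the endoplasmic reticulum rose, 17 of 18 by at least 2-fold, with a median of 2.13. Of all tested genes 36.0% rose and 17.3% did so by at least 2-fold. BIP3, the chaperone induced when unfolded proteins accumulate, was at 71.8 and 79.6 CPM in mips1 and 0.549 and 0.424 CPM in Col-0. Its abundant relatives BIP1 and BIP2 had log2 fold changes of 2.08 and 2.52. Among the sensors, the transcription factor BZIP60 had 2.28, BZIP28 1.42, IRE1A 1.46 and the paralogue IRE1-1 0.39. Small heat shock protein genes, which are near silent without stress, rose in 6 of 6 tested members. HSP17.4 was at 36.5 and 33.0 CPM in mips1 and 1.12 and 0.812 CPM in Col-0.

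Markers of leaf senescence rose in 13 of 13 tested genes, against 36.0% of all tested genes, with a median of 2.03. SAG13, a gene of early senescence and of defence, was at 454 and 444 CPM in mips1 and 4.11 and 3.40 CPM in Col-0, and the factors WRKY53 and ORE1 had log2 fold changes of 3.80 and 2.03. Enzymes that break down chlorophyll rose too, with NYE1 at 1.90, NYC1 at 0.82 and PPH at 0.69. SAG12, the protease gene that marks late senescence, held 1 count in each mips1 library and 0 in each Col-0 library and was not tested. Autophagy genes, which recycle cell contents, rose in 20 (69.0%) of 29 tested members and fell in 5 (17.2%), against 36.0% and 37.1% of all tested genes. Of these 29, 5 share only a symbol with the family, among them APG1, APG2, APG3 and APG10, which are named for albino or pale green mutants and fell. Without these 5, 20 of 24 rose and 1 fell, led by ATG8H, a ubiquitin-like protein of the autophagosome, at 65.9 and 65.8 CPM in mips1 and 9.79 and 11.2 CPM in Col-0.

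**Figure D3:**
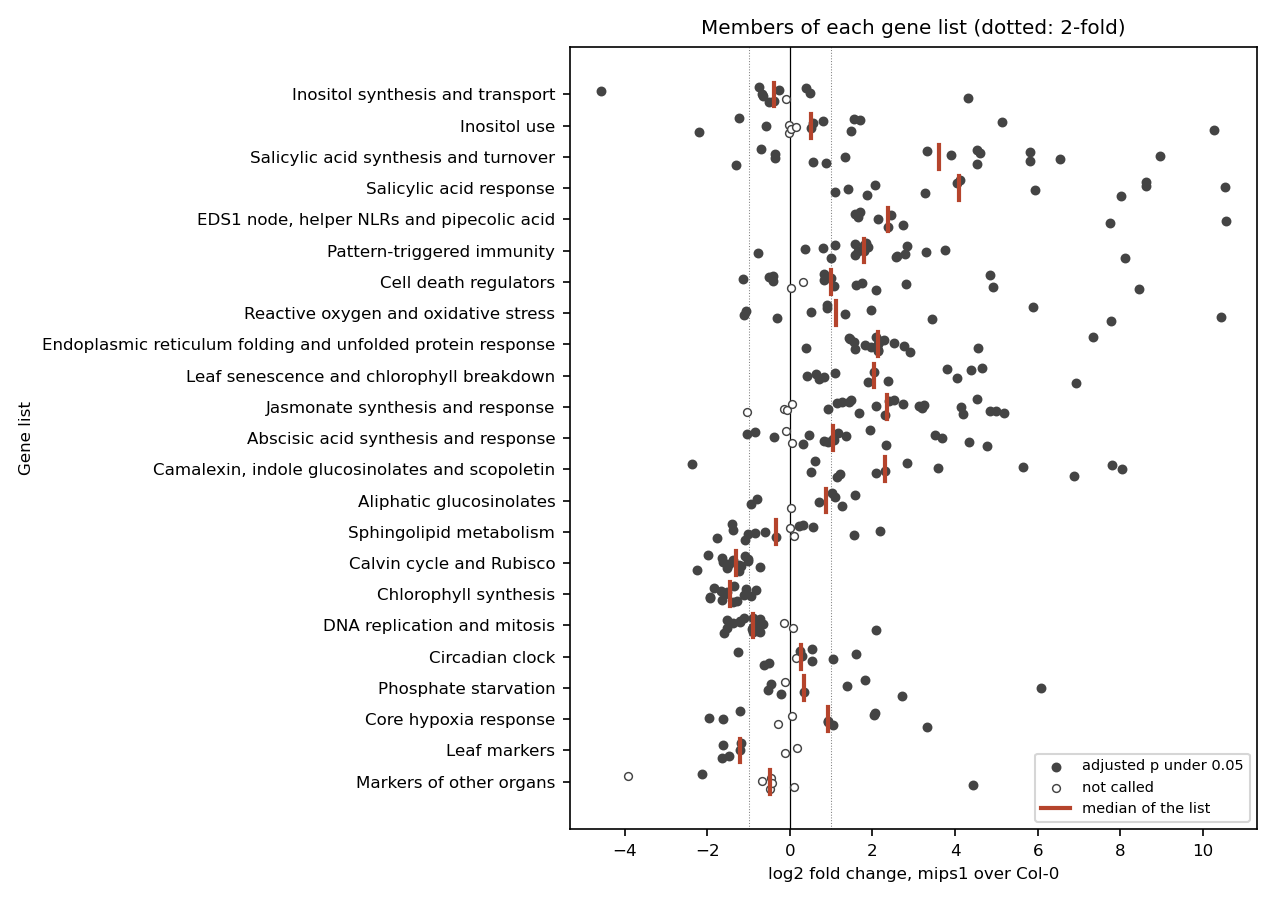
Log2 fold change of mips1 over Col-0 for each tested member of 23 gene lists; filled points were called, open points were not, red bars are medians and dotted lines 2-fold. Lists of salicylic acid response (median 4.09), the EDS1 node (2.38) and the endoplasmic reticulum (2.13) lie wholly on the right, and the Calvin cycle (-1.31) and chlorophyll synthesis (-1.45) wholly on the left.

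Jasmonate, the hormone of wounding and of defence against necrotrophs, also had raised genes: of 24 tested, 20 rose (83.3%), 0 fell and 4 were not called. Of all tested genes 36.0% rose and 37.1% fell. In synthesis LOX4 (4.19), AOC3 (4.13) and OPR3 (2.30) rose, whereas AOS was at 223 and 248 CPM in mips1 and 221 and 269 CPM in Col-0 and was not called. AOC4, JAR1 and THI2.1 were not called either. Repressors of the JAZ family are removed and then induced by the hormone. The 5 on the list all rose, between JAZ2 (1.15) and JAZ7 (5.17), while JAZ4, looked up afterwards, was called lower (-1.11). In the outputs, the defensin PDF1.2 was at 102 and 89.0 CPM in mips1 and 3.18 and 2.91 CPM in Col-0, and VSP1, of the wound branch, at 24.0 and 26.2 CPM in mips1 and 2.24 and 2.88 CPM in Col-0.

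Genes of abscisic acid, the hormone of drought, were less uniform. Of 19 tested, 14 rose (73.7%) and 3 fell (15.8%), against 36.0% and 37.1% of all tested genes. The phosphatase HAI1 (4.77) and the synthesis gene NCED5 (3.52) rose. ABA1 and ABA2, early and late steps of synthesis, fell by 1.04 and 0.85 on the log2 scale, and NCED3, the main stress-induced step, was at 14.9 and 16.3 CPM in mips1 and 20.4 and 20.1 CPM in Col-0, a fall not called under scaling by library size. The 3 catabolic genes CYP707A1, CYP707A2 and CYP707A3 had 2.34, 1.93 and 1.17.

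Camalexin, an indole antibiotic of Arabidopsis, is made through CYP79B2, CYP71A13 and PAD3. PAD3 was at 197 and 228 CPM in mips1 and 0.597 and 0.918 CPM in Col-0, and the log2 fold changes of CYP79B2, CYP71A13 and CYP71A12 were 3.59, 5.65 and 7.81. F6H1, which makes the coumarin scopoletin, had 6.88. The indole glucosinolate regulators went apart, with MYB51 at 96.1 and 96.0 CPM in mips1 and 13.8 and 13.3 CPM in Col-0, and MYB34 at 8.19 and 7.90 CPM in mips1 and 43.1 and 40.5 CPM in Col-0. MYB34 was the member of 13 that fell. Among 8 tested genes of aliphatic glucosinolates, the regulators MYB28 (-0.95) and MYB29 (-0.79) fell and 5 of the enzymes rose, such as MAM3 (1.57) and CYP79F1 (1.09). Cytochromes P450, to which several of these enzymes belong, rose in 79 (50.6%) and fell in 45 (28.8%) of 156 tested members. Over all tested genes the shares were 36.0% and 37.1%.

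The other genes of inositol synthesis and transport changed in both directions. The paralogue MIPS2 was at 17.6 and 18.7 CPM in mips1 and 11.2 and 14.5 CPM in Col-0 (log2 fold change 0.48), and MIPS3 at 12.4 and 15.3 CPM in mips1 and 18.5 and 25.7 CPM in Col-0 (-0.68, not called under scaling by library size). The phosphatase VTC4, which releases inositol and also acts in ascorbate synthesis, fell by 0.76 on the log2 scale. INT2, an inositol transporter, rose to 4.46 and 5.60 CPM in mips1 against 0.119 and 0.329 CPM in Col-0. Of 11 tested genes for synthesis and transport, MIPS1 included, 3 rose (27.3%) and 7 fell (63.6%). Over all tested genes the shares were 36.0% and 37.1%. With library size as the scale 4 of the 11 rose and 3 fell.

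Of 15 tested genes that use inositol, 8 rose, 3 fell and 4 were not called, 5 and 2 of them by at least 2-fold. These are 53.3% and 20.0% of the list, against 36.0% and 37.1% of all tested genes. MIOX4, an inositol oxygenase of the route to cell wall sugars, was at 31.2 and 30.8 CPM in mips1 while the Col-0 libraries held 0 and 3 counts, a ratio of 1308 with a 95% counting interval of 448 to 6340. MIOX2 rose (1.56) and MIOX1 fell (-1.22), and MIOX5 had no count. Galactinol synthases went apart, with GolS4 at 2.74 and 2.88 CPM in mips1 and 0.0716 and 0.0824 CPM in Col-0, GolS1 at a log2 fold change of 1.49 and GolS3 at -2.19. ERH1, an inositolphosphorylceramide synthase that joins inositol to ceramide, was at 131 and 137 CPM in mips1 and 41.8 and 40.9 CPM in Col-0 (1.69 ± 0.06, SE, n = 2; adjusted p = 8.57e-11). Its paralogue IPCS1 had 0.81, and IPCS3, at 11.3 and 10.4 CPM in mips1 and 11.6 and 10.5 CPM in Col-0, was not called.

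Ceramides are the backbone of sphingolipids, and their free forms are known to trigger cell death in plants. LOH2, the ceramide synthase for C16 chains, was at 32.9 and 32.9 CPM in mips1 and 11.5 and 10.9 CPM in Col-0 (log2 fold change 1.56 ± 0.07, SE, n = 2; adjusted p = 9.38e-10). LOH1 (AT3G25540) and LOH3, the synthases for very long chains, were at 25.3 and 26.4 CPM and at 9.04 and 9.28 CPM in mips1, against 24.5 and 23.9 CPM and 9.03 and 9.35 CPM in Col-0, and were not called. DPL1, the lyase that breaks down phosphorylated long-chain bases, rose (2.19). The hydroxylases SBH2 (-1.76), FAH1 (-1.37) and FAH2 (-1.39) and the elongation enzymes PAS2 (-1.08) and CER10 (-1.02) fell. The list had 21 names, of which 15 were matched to a gene. Over these 15 tested genes, 5 rose (33.3%) and 8 fell (53.3%), against 36.0% and 37.1% of all tested genes. With library size as the scale 7 rose and 7 fell.

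Photosynthesis genes fell in almost every member. All 14 tested Calvin cycle genes fell, 13 by at least 2-fold (median -1.31). Of all tested genes 37.1% fell and 14.3% did so by at least 2-fold. RBCS1A, a small subunit of Rubisco, was at 5144 and 4999 CPM in mips1 and 15996 and 15026 CPM in Col-0, and RBCS3B had the strongest fall with -2.26. The 14 genes of chlorophyll synthesis also all fell, 12 by at least 2-fold (median -1.45), with CRD1, the cyclase, at 649 and 687 CPM in mips1 and 2557 and 2552 CPM in Col-0. GLK1 and GLK2, factors that activate such genes, had -0.82 and -1.52. Of 36 tested light-harvesting and photosystem genes taken by symbol 33 fell by at least 2-fold. The member that rose, PSAT, is a phosphoserine aminotransferase and no photosystem protein, and PSAT1 is a sterol acyl transferase. Without both, 33 of 34 fell and LHCB4.3 was not called, at 40.9 and 44.4 CPM in mips1 and 32.9 and 40.6 CPM in Col-0. LHCB2.3 fell furthest, to 170.5 and 173 CPM in mips1 against 1463 and 1519 CPM in Col-0. Summed reads of the 10 genes with the largest fall in CPM, 9 of which encode antenna proteins or RBCS1A, were 33243 and 33042 CPM in mips1 and 148211 and 136142 CPM in Col-0; the remaining 1 is an RNA that overlaps LHB1B2 and shares its reads. Of 101 tested chloroplast-encoded genes, 16 (15.8%) were called at least 2-fold lower and 0 higher, a share of falls close to the 14.3% of all tested genes, while their median log2 fold change was -1.82. The first Col-0 library held the largest organelle share, and its part in these values was not tested.

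Genes for ribosomal proteins fell under TMM in 234 (72.2%) of 324 tested, with 25 rising (7.7%) and a median of -0.39. Of all tested genes 37.1% fell and 36.0% rose under TMM. With library size as the scale 105 of the ribosomal genes fell and 71 rose. Falls of at least 2-fold were called in 43 members (13.3%), a share near the 14.3% of all tested genes. They included AT1G29070 for protein L34, at 134 and 130 CPM in mips1 and 468 and 406 CPM in Col-0.

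**Figure D4:**
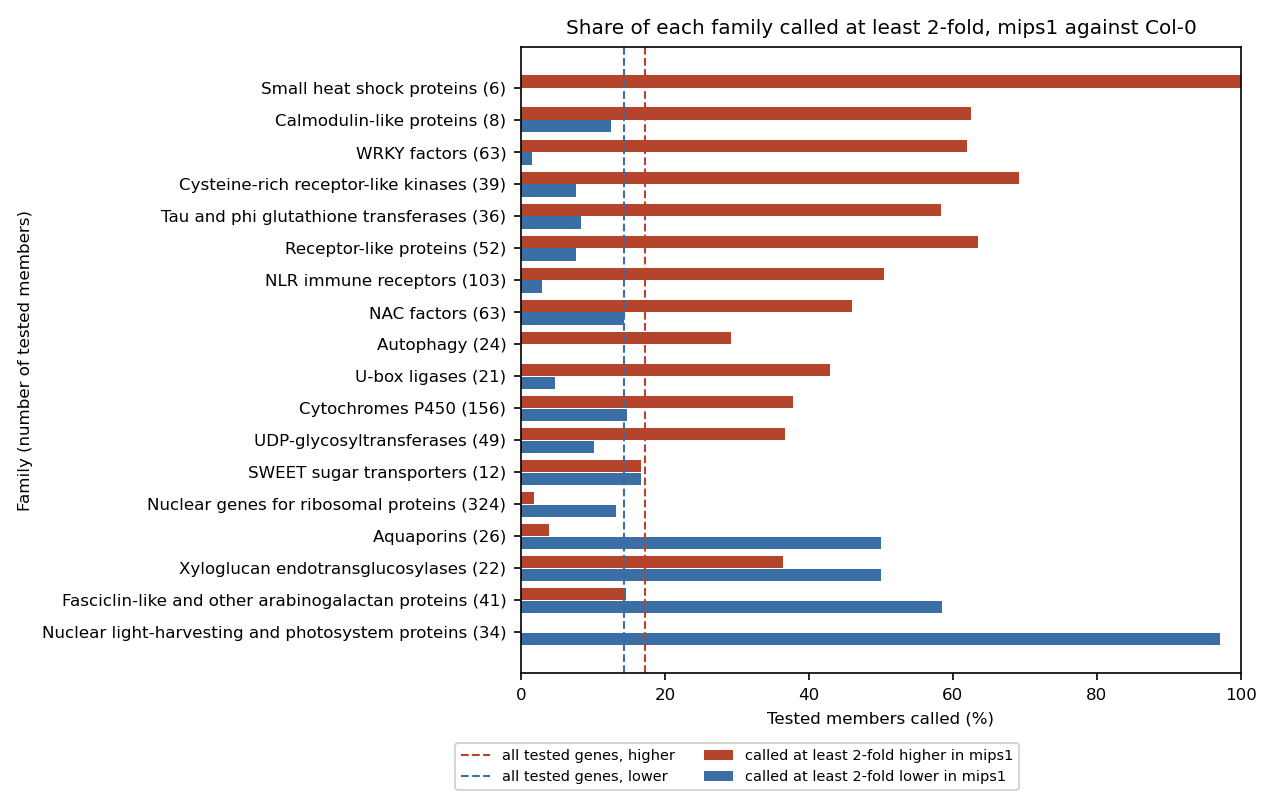
Share of the tested members of each family called at least 2-fold higher (red) or lower (blue) in mips1, with dashed lines for all tested genes (17.3% and 14.3%); numbers of tested members are in brackets, and aquaporins, autophagy and photosystem proteins are without genes that only share a symbol. Receptor, WRKY and glutathione transferase families pass the red line. So do NAC factors (46.0%), calmodulin-like proteins (62.5%), U-box ligases (42.9%), UDP-glycosyltransferases (36.7%), small heat shock proteins (100%) and autophagy genes (7 of 24). Photosystem proteins, arabinogalactan proteins, xyloglucan enzymes and aquaporins pass the blue line, and SWEET carriers (16.7%) and cytochromes P450 (14.7%) just do. Xyloglucan enzymes (36.4%) and cytochromes P450 (37.8%) pass the red line as well.

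Genes of DNA replication and mitosis were mostly lower as well. Of 20 tested, 17 fell (85%) and 1 rose (5%), against 37.1% and 36.0% of all tested genes. By at least 2-fold 7 fell (35%), against 14.3% of all tested genes. KN, the syntaxin of the cell plate, was at 2.82 and 3.66 CPM in mips1 and 8.88 and 10.9 CPM in Col-0, and CYCB1;2, a mitotic cyclin, at 1.40 and 1.49 CPM in mips1 and 4.11 and 4.25 CPM in Col-0. All 6 MCM genes, for the replicative helicase, fell by 0.65 to 0.93 on the log2 scale. The gene that rose, SMR5, encodes an inhibitor of the cell cycle, at 0.266 and 0.282 CPM in mips1 and 0.0716 and 0.0588 CPM in Col-0. Mitotic genes are known for the MSA element, searched as CCAACGG or CTAACGG on either strand and found in 3 of these 20 promoters and in 3.11% of all promoters. CYCB1;2 holds it 4 times, and its promoter is shown with those words in capitals.
CYCB1;2, chr5:1861704-1861953, reverse strand: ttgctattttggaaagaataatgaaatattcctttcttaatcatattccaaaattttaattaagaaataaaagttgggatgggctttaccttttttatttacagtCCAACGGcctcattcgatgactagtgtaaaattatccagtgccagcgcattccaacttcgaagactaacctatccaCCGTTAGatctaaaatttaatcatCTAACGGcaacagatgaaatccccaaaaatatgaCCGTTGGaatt
The words begin 145, 69, 45 and 11 bases before the start.

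Cell wall families had strong members in both directions. Among 41 tested fasciclin-like and other arabinogalactan proteins, 28 fell (68.3%) and 7 rose (17.1%), against 37.1% and 36.0% of all tested genes. AGP3 was at 0.210 and 0.191 CPM in mips1 and 3.32 and 2.53 CPM in Col-0, and AGP5 at 74.3 and 64.6 CPM in mips1 and 0.382 and 0.506 CPM in Col-0. Xyloglucan endotransglucosylases, which loosen or reinforce walls, fell in 12 (54.5%) and rose in 9 (40.9%) of 22 tested members. Of all tested genes 37.1% fell and 36.0% rose. XTH17 was at 0.321 and 0.419 CPM in mips1 and 4.80 and 6.40 CPM in Col-0. Aquaporins, the water channels, fell in 21 and rose in 3 of 26 tested members, and PIP1C was at 85.9 and 86.9 CPM in mips1 and 357 and 416 CPM in Col-0. Taken by symbol alone this family had 40 tested members, 23 lower and 9 higher, since kinases, seed imbibition proteins and others share its symbols; SIP2, a seed imbibition protein, had the highest value there with 2.93. Of 12 tested SWEET sugar carriers 5 rose (41.7%) and 4 fell (33.3%), shares near those of all tested genes.

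Genes of other conditions gave mixed pictures. In the clock, TOC1 was at 149 and 142 CPM in mips1 and 48.4 and 48.2 CPM in Col-0, and PRR9 fell (-1.25). Of 10 tested clock genes 6 rose (60%) and 3 fell (30%), against 36.0% and 37.1% of all tested genes. Under phosphate starvation SPX3 is a sensor that rises: it was at 2.77 and 2.81 CPM in mips1 and held 3 and 2 counts in Col-0, a ratio of 71.0 (95% counting interval 30.4 to 219). SPX1 (1.38), PHT1;4 (2.71) and PAP17 (1.82) rose too, while MGD3 (-0.54) and PHO1 (-0.45) were called lower under TMM but not with library size as the scale. SQD2 (-0.21) was called lower too, but 6 of 12 alternatives did not call it, among them the fit of the 4 libraries alone. Of 11 tested genes of the core hypoxia response, 6 rose (54.5%) and 3 fell (27.3%), against 36.0% and 37.1% of all tested genes. The rise of PCO2, with 1 count in each Col-0 library, was not called with DESeq2, after thinning, or without replicate 2 of either line. The marker ADH1 was at 7.37 and 8.29 CPM in mips1 and 4.27 and 4.01 CPM in Col-0, and PDC1 and HRE1 were not called. Floral markers were low, with PI at 1.96 and 1.86 CPM in mips1 and 0.0716 and 0.0941 CPM in Col-0, and AG at 0.294 and 0.264 CPM in mips1 and 1.15 and 1.25 CPM in Col-0.

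Among genes with a mean of at least 50 counts, those with the largest folds were near or at 0 in Col-0. AT2G44240, of a family with a domain of unknown function, was at 136 and 152 CPM in mips1 with no count in Col-0, which is at least 2008-fold higher. GLP9, a germin-like protein, was at 140.3 and 139.9 CPM in mips1 with 0 and 1 counts in Col-0. AT1G26390, of the berberine bridge enzyme family, was at 538 and 584 CPM in mips1 and 0.119 and 0.0353 CPM in Col-0, where it held 5 and 3 counts. Of 274 tested genes with no count in either Col-0 library, 192 were called at least 2-fold higher in mips1; they passed the filter through libraries other than those of Col-0, so this count is a description. In the other direction, 9 of 62 tested genes with no count in either mips1 library were called at least 2-fold lower. ACS5, an ethylene synthesis gene, was at 0 in both mips1 libraries and at 1.504 and 1.62 CPM in Col-0, which is at least 37.3-fold lower. BR6OX1, of brassinosteroid synthesis, was at 0.0839 and 0.0911 CPM in mips1 and 1.91 and 1.47 CPM in Col-0, and 2 SAUR genes of auxin response, AT1G29490 and AT3G53250, had log2 fold changes of -4.93 and -4.60. By reads gained, PR2, the peroxidase PRXCB (1766 and 1873 CPM in mips1, 30.3 and 38.3 CPM in Col-0) and PR1 stood among the first 10, together with the glutathione transferase GSTF2, whose reads are shared with the overlapping gene TOC159.

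Changed genes lay along all chromosomes, with 16.6% to 17.9% of tested genes at least 2-fold higher and 13.7% to 14.8% at least 2-fold lower on chromosomes 1 to 5. In 53 places 5 or more neighbouring tested genes all rose by at least 2-fold, and in 24 they all fell. The longest fall, 13 genes on chromosome 1 from 10301377 to 10309896, holds 5 genes annotated as SAUR proteins, of which SAUR63 was at 5.16 and 4.81 CPM in mips1 and 20.0 and 18.9 CPM in Col-0, and 6 noncoding RNAs, some of which overlap other genes of the run and share their reads. The longest rise, also 13 genes, ran on chromosome 1 from 24331373 to 24366466 and began with FT, the mobile flowering signal, at 2.19 and 2.19 CPM in mips1 and 0.478 and 0.671 CPM in Col-0. It went on with 9 genes annotated as uncharacterized, among them AT1G65483 at 35.1 and 31.3 CPM in mips1 with 2 and 0 counts in Col-0. A run of 9 on chromosome 2 from 583797 to 619138 joined PSKR1, the phytosulfokine receptor (log2 fold change 1.87), to the PP2-B cluster of lectin-like genes, in which PP2-B8 was at 2.07 and 1.93 CPM in mips1 with no count in Col-0. On chromosome 1 from 19237219 to 19294612 a run of 7 held 4 leucine-rich repeat kinases, AT1G51890 being at 118 and 126 CPM in mips1 and 0.239 and 0.306 CPM in Col-0. The neighbours in these last runs are partly tandem copies. Reads that map to several places were counted, so 1 read may count for several of them.

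Promoters differed in other words too. All were searched on both strands. TGA factors have the core TGACG, and the G-box is CACGTG. Site II was read as TGGGCC or TGGGCT, the telo-box as AAACCCTA and the I-box as GATAAG. The TATA box was read as TATAAA, the evening element as AAAATATCT, and P1BS as GNATATNC. For E2F factors TTTCCCGC was accepted, and so was TTTGGCGC; further accepted words were TTTCGCGC and also TTTGCCGC. TGACG shares TGAC with the W-box words but needs another base after it. It was in 27.5% of promoters of genes called at least 2-fold higher and 20.4% of those lower, against 23.1% of all promoters. Site II, known from genes of ribosomes and growth, was in 14.9% of the higher, 18.9% of the lower and 27.5% of genes not called, against 21.7% of all. It was in 221 of 344 ribosomal protein promoters. The I-box, known from light-regulated genes, was in 17 of 36 promoters of the photosystem family, against 14.7% of all promoters.

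**Figure D5:**
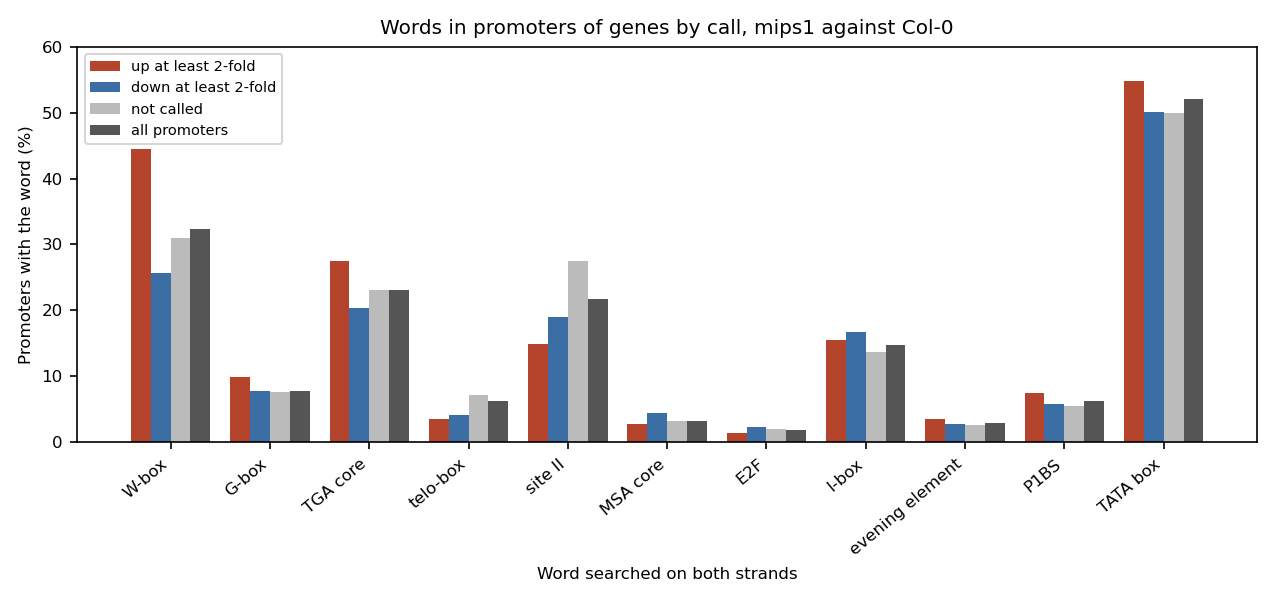
Share of promoters (250 bases before to 50 after the start) that hold each word, for genes called at least 2-fold higher in mips1, at least 2-fold lower, tested genes not called, and all promoters. The W-box stands out with 44.5% of the higher genes, 25.7% of the lower and 32.4% of all, and site II is most frequent in genes not called (27.5%).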

How the data were processed

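The deposited values were raw counts of reads per gene, which the authors made by trimming with Trimmomatic, mapping with STAR 2.7.0d and counting with featureCounts 1.6.3, as the submitters' processing notes and the study's methods give them; multi-mapping and overlapping reads were counted and strand was not used. The deposited normalised counts and the tables of the authors' own comparisons (fold changes and p-values) were not used.

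Genes were matched to RefSeq TAIR10 by identifier (37051 of 37336). Counts of all 8 libraries were fitted in 1 model of 4 genotypes with edgeR 4.0.16 (filterByExpr, TMM, robust quasi-likelihood fit, 4 residual degrees of freedom) in R 4.3.3, and mips1 was contrasted with Col-0. Alternatives were DESeq2 1.42.0, other scalings and filters, the 4 libraries alone, a replicate block, thinning, and each library left out. The members, the 23 gene lists and the 18 families taken by symbol were chosen with earlier results of these data known, and 321 of 332 list names were found. Named genes were list members, the extremes of each family, the 10 largest and smallest folds among genes with a mean of at least 50 counts, the 10 largest rises and falls in CPM, the 10 longest runs, and the 5 neighbours on each side of MIPS1. Folds against 0 counts in both libraries use a floor of 3 counts in a library, and ratios over 1 to 3 counts carry exact 95% Poisson intervals, which cover counting error only. Figures were drawn with matplotlib 3.10.9. The sequence of 1 further promoter is not reported here.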

Additional observations from a re-analysis of the deposited data

Results flagged for a closer look

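For 6 genes the effect of mips1 was also taken in the big background, as mips1 big over big, and the difference of the 2 effects was tested as an interaction in the same edgeR quasi-likelihood fit, with Benjamini-Hochberg adjustment over all genes. All 6 differed between the backgrounds. They had been named to show where the effect of mips1 differs, and the share of all tested genes that differed so is not given. The interaction was -6.81 on the log2 scale for PR1 (adjusted p = 1.3e-11), whose mean was 1558 CPM in mips1, 1.04 CPM in Col-0, 88.0 CPM in mips1 big and 6.61 CPM in big. It was -3.03 for ICS1 (adjusted p = 4.36e-10) and -1.44 for LOH2 (adjusted p = 1.23e-07). LOH2 averaged 32.9 CPM in mips1, 11.2 CPM in Col-0, 11.03 CPM in mips1 big and 10.2 CPM in big. For genes lower in mips1 the interaction was positive, 1.35 for RBCS1A (adjusted p = 2.65e-07), 1.53 for CDKB2;1 (adjusted p = 4.85e-07) and 1.3 for MIPS1 (adjusted p = 4.66e-05). MIPS1 averaged 5.71 CPM in mips1, 136 CPM in Col-0, 10.3 CPM in mips1 big and 99.6 CPM in big.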

How the results depend on the processing

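With library size alone as the scale, 5813 genes were called lower and 2009 of them by at least 2-fold; the other counts over all tested genes stayed within 1.5 times under each alternative. Leaving out each library in turn gave 8049 to 8756 genes higher and 7672 to 9043 lower, or 4143 to 4255 and 3206 to 3676 by at least 2-fold, where a line with 1 library left is assumed to vary like the others. The replicate block gave 8497 higher and 8716 lower; the numbers do not pair the samples, since deviations of same-numbered libraries correlated between -0.22 and 0.21. The median of 12 SWEET sugar transporters turned to -0.35 with at least 10 counts required in every library and to -0.40 after thinning to the smallest library; the genes counted differ under these settings. Of 492 medians of lists and families over the alternatives, 490 kept their sign. Of 281 list genes called, 263 kept call and sign in every alternative that tested them, which was all 12 for 245 of them and 11 for 18; another 18 lost the call in at least 1, and INT4, CAT2 and SQD2 changed sign. Leaving out genes that only share a symbol, chosen after seeing the data, gave medians of -0.96 for aquaporins, 0.66 for autophagy and -1.90 for photosystem proteins. With 2 libraries a line, depth limits the genes under 3 counts in Col-0, for which ratios have wide intervals.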
